A study of Homo sapiens with 12 samples.

Results

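Expression of 10 genes that handle zinc was followed in LNCaP prostate cancer cells with and without Bag-1L. The genes were the ZIP importers SLC39A1, SLC39A6, SLC39A7, SLC39A8 and SLC39A10, the ZnT exporters SLC30A1, SLC30A4 and SLC30A5, and the metallothioneins MT2A and MT1X. They were chosen by symbol, as the rows of the count tables whose Ensembl identifier maps to these names, and are 10 of 63677 identifiers. All 10 passed the filter on low counts, which kept 26156 genes.

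Zinc crosses membranes through 2 families of carriers that work in opposite directions. ZIP (SLC39A) proteins bring zinc into the cytosol from outside the cell or from organelles, and ZnT (SLC30A) proteins take it out of the cytosol, either across the cell surface or into vesicles and the secretory pathway. Metallothioneins are small, cysteine-rich proteins that bind the free metal, and their genes are switched on through metal response elements by the zinc-sensing factor MTF1. Normal prostate epithelium is known for its high zinc content, and prostate tumours are known to lose much of this zinc.

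LNCaP is an established, androgen-responsive prostate cancer line. The control line had received a TALEN vector control. In the Bag-1L KO line a TALEN pair had removed the CTG start codon of Bag-1L, the longest of the proteins that BAG1 encodes. The study isolated KO cells as single clones by serial dilution, and the labels name 1 control and 1 KO line, so a difference between the lines cannot be told apart from a difference between clones. Each line was either grown in full medium with serum (FM), or kept for 72 h in charcoal-stripped serum, which lacks hormone, and then given ethanol vehicle (EtOH) or 10 nM dihydrotestosterone (DHT), an androgen, for 16 h. Each of the 6 groups held 2 biological replicates, and no batch or date was given. FM and EtOH cells thus differ in serum, starvation and vehicle at once.

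The 12 libraries held between 20826843 and 30354666 gene counts, and 3 counts, taken as the floor of detection, were worth 0.0988 to 0.144 CPM. The median gene differed by 0.238 on the log2 scale between the control EtOH replicates and by 0.0765 to 0.172 between those of the other groups. Results that use control EtOH were therefore refitted without each of its libraries, and where a member's call changed both values are given. BAG1 itself ranged from 1702 to 2703 normalized counts over the 6 control samples and from 1075.5 to 1576 over the 6 KO samples. It was lower in KO in EtOH (log2 fold change -0.94, adjusted p = 6.35e-06) and DHT (-1.14, adjusted p = 7.71e-09) and did not pass in FM (-0.43, adjusted p = 0.0682). These counts cover BAG1 mRNA as a whole, and a lost start codon need not change them. The 7 luminal markers counted, KLK3 and KRT8 among them, summed to 49931.1 to 103332.6 normalized counts, while immune markers summed to at most 3.0 and basal markers to at most 32.9. The stromal markers COL1A1 and ACTA2 were present, and the stromal list summed to 1106.1 to 1730.4 in starved control and 794.6 to 940.3 in starved KO samples. COL3A1 and DCN reached at most 38.4 and 9.0, the endothelial marker VWF had 127.0 to 240.7, and the part of these levels in the zinc results was not tested.

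Fold changes below are log2 ratios of normalized counts from DESeq2, with their standard error (SE) or 95% interval. A gene passed when it changed by at least 1.5-fold with a p, adjusted over all genes tested, of at most 0.05. In bulk RNA, fewer cells with a transcript and less of it per cell cannot be told apart.

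The genes lie apart on 8 chromosomes, except that SLC39A1 and SLC30A1 share chromosome 1 and both metallothioneins stand close together on chromosome 16. In GRCh37 the importers were SLC39A1 (ENSG00000143570, chr1:153931575-153940660, minus strand), SLC39A6 (ENSG00000141424, chr18:33688494-33709348, minus), SLC39A7 (ENSG00000112473, chr6:33168082-33172216, plus), SLC39A8 (ENSG00000138821, chr4:103172237-103352415, minus) and SLC39A10 (ENSG00000196950, chr2:196440701-196602426, plus). The exporters were SLC30A1 (ENSG00000170385, chr1:211744910-211752503, minus), SLC30A4 (ENSG00000104154, chr15:45771804-45814953, minus) and SLC30A5 (ENSG00000145740, chr5:68389818-68426896, plus). MT2A (ENSG00000125148) lay at chr16:56642496-56643409 and MT1X (ENSG00000187193) at chr16:56716382-56718108, both on the plus strand.

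The sequences just before the start of both metallothionein genes are shown because these were the members that rose together in FM in KO. They are the 250 bases upstream of the RefSeq start in GRCh38.p14, a later build than that of the counts, at chr16:56608334-56608583 for MT2A and chr16:56682220-56682469 for MT1X, plus strand. Capitals mark the core of the metal response element, searched as TGCACNC or TGCGCNC on both strands.
MT2A: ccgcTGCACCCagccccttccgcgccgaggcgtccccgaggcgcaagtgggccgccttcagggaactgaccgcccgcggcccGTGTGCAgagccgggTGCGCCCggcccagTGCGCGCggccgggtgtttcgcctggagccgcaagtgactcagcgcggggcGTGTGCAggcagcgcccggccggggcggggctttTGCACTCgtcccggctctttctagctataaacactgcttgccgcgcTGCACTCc
MT1X: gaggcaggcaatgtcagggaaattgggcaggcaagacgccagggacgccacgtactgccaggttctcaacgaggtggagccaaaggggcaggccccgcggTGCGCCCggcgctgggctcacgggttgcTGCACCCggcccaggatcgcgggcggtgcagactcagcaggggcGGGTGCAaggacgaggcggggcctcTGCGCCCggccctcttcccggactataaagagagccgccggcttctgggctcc
The MT2A window held 7 cores and the MT1X window 4. Of 35116 such windows over all genes, 24.8% held at least 1 core, 0.37% at least 4 and 0.0313% at least 7. SLC30A1 and SLC30A4 had 1 core each, as did SLC39A6, whereas SLC39A7, SLC39A10 and SLC30A5 had none in any window. SLC39A1 and SLC39A8, with more than 1 window each, had 1 core in 1 of their windows and none in the rest. The hexamer AGAACA of the androgen response element, searched on both strands, stood in the SLC30A5 window and in 1 of 2 windows of SLC39A1, and in 12.4% of all windows. SLC39A7 and SLC30A4, whose levels moved with DHT, did not carry these letters in their windows, which says nothing of more distant sites. A match of letters is a description and not a bound site.

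The main changes were in 2 carriers and in the metallothioneins. SLC39A7, the importer of the endoplasmic reticulum, rose with DHT in both lines, 1.96-fold in control and 1.58-fold in KO. SLC30A4, which loads zinc into vesicles, fell with DHT 2.18-fold in control and 1.7-fold in KO and was higher in KO than in control after starvation. MT2A and MT1X rose 2.5-fold and 2.54-fold in FM over EtOH in KO, and the MT2A response differed between the lines.

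**Figure D1:**
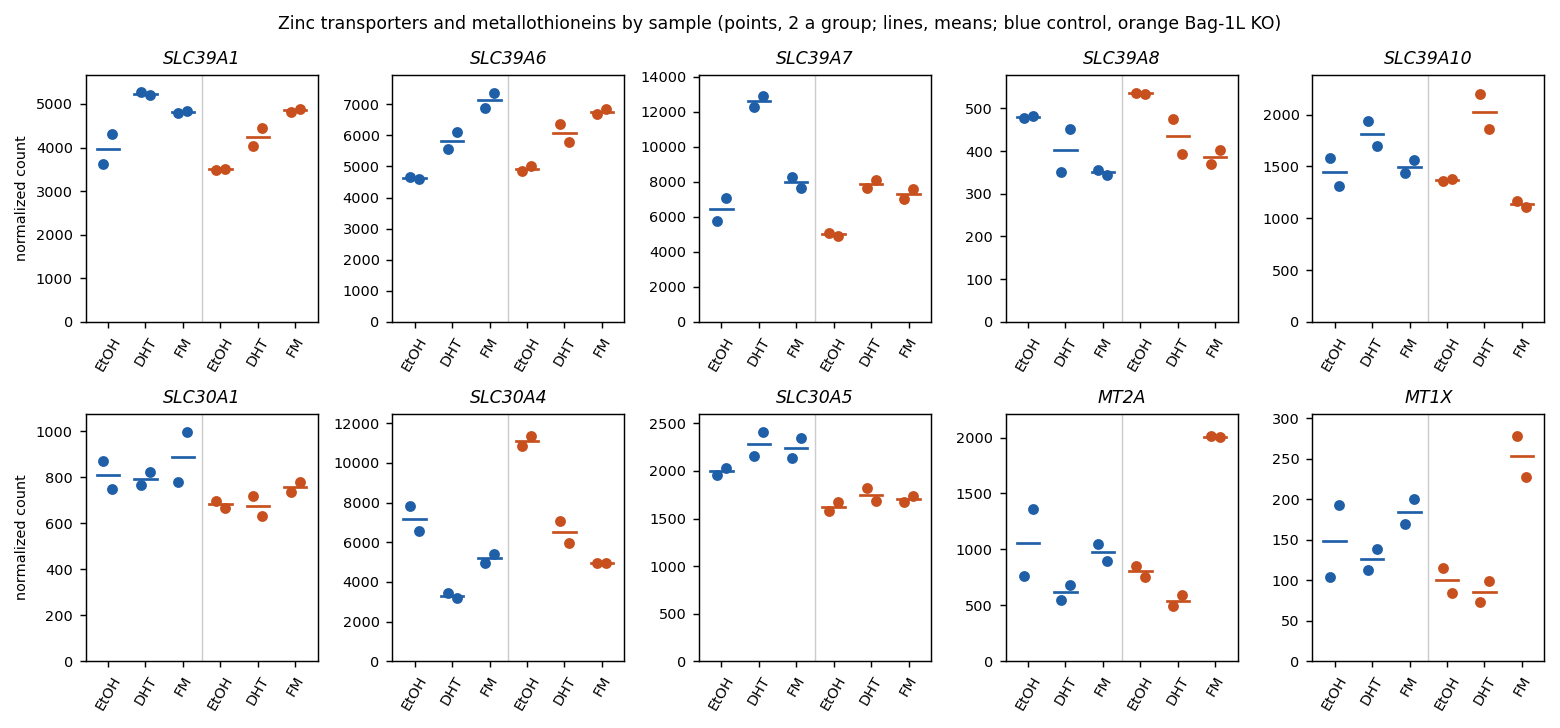
Normalized counts of the 10 genes (vertical axes, from 0) in each of the 12 samples, by line and culture condition, with 1 panel per gene. Points are samples, lines are means of 2, blue is control and orange is Bag-1L KO. SLC30A4 stood highest in KO EtOH, at 10832 and 11357, and MT2A in KO FM, at 2011 and 2006.

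SLC39A7 (ZIP7) moves zinc from the endoplasmic reticulum into the cytosol. In control its normalized counts were 5773 and 7103 in EtOH, 12285 and 12929 in DHT and 8275 and 7658 in FM. In KO they were 5091 and 4903 in EtOH, 7657 and 8131 in DHT and 6992 and 7613 in FM. Both DHT samples lay above both EtOH samples in each line, and control DHT stood above every other sample. The change with DHT was 0.97 (SE 0.12, adjusted p = 4.39e-15) in control and 0.66 (SE 0.12, adjusted p = 5.01e-07) in KO. The responses differed by -0.31 (95% interval -0.63 to 0.01, adjusted p = 1), so a difference between the lines did not pass, and the interval reaches from a response in KO that is lower by 0.63 to an equal one. KO was below control in DHT (log2 fold change -0.68, SE 0.12, adjusted p = 3.08e-07), which passed. In EtOH the value of -0.37 (adjusted p = 0.0227) was under the fold minimum. In FM it was -0.13 (95% interval -0.35 to 0.10). FM against EtOH gave 0.31 (adjusted p = 0.0271) in control and 0.55 (adjusted p = 2.39e-05) in KO, both under the fold minimum, though the KO value was 0.61 and passed without replicate 1 of KO FM. Of its exon bases, 9.02% overlap RXRB on the other strand, which had at most 1741 counts.

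SLC39A6 (ZIP6, also called LIV-1) brings zinc in across the cell surface. Its normalized counts were 4677 and 4595 in control EtOH, 5549.6 and 6115 in DHT and 6879 and 7370.0 in FM. They were 4854 and 5015 in KO EtOH, 6366 and 5785 in DHT and 6676 and 6849 in FM. In both lines EtOH was lowest and FM highest, with no overlap between conditions. FM raised it by 0.62 (SE 0.10, adjusted p = 5.50e-09) in control, just past the fold minimum. In KO the value was 0.45 (SE 0.10, adjusted p = 3.38e-05), under it, and the responses differed by -0.17 (95% interval -0.44 to 0.11, adjusted p = 0.572). Without replicate 2 of control FM the control value was 0.57, which no longer reached the fold minimum. DHT gave 0.33 (adjusted p = 0.00632) in control and 0.30 (adjusted p = 0.0215) in KO. KO against control lay between -0.08 in FM and 0.09 in EtOH.

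SLC39A1 (ZIP1) is the carrier best known for zinc uptake in prostate cells. Its normalized counts were 3619 and 4307 in control EtOH, 5264 and 5202 in DHT and 4795 and 4832 in FM. The KO samples had 3473.5 and 3519 in EtOH, 4025 and 4451 in DHT and 4809 and 4894 in FM. The EtOH samples were the lowest in each line, and FM was at a like level in both. None of its comparisons reached the fold minimum. Among the values with an adjusted p of at most 0.05 were 0.40 with DHT in control (95% interval 0.19 to 0.61, adjusted p = 0.00189) and 0.47 with FM in KO (95% interval 0.26 to 0.68, adjusted p = 9.28e-05). KO against control was -0.30 in DHT (adjusted p = 0.0328) and 0.01 in FM (95% interval -0.20 to 0.22). CREB3L4 overlaps 8.26% of its exon bases on the other strand and had up to 8744 counts, and how strand was treated in counting was not stated.

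SLC39A10 (ZIP10), a surface importer closely related to SLC39A6, had 1579.7 and 1309 in control EtOH, 1935 and 1694 in DHT and 1433 and 1562 in FM. In KO it had 1357.5 and 1375 in EtOH, 2197 and 1859 in DHT and 1169 and 1107 in FM. The KO samples spread more widely, with DHT highest and FM lowest, and these KO groups did not overlap. DHT against EtOH gave 0.57 (SE 0.13, 95% interval 0.31 to 0.83, adjusted p = 0.000369) in KO, a 1.48-fold change just under the fold minimum, and 0.33 (adjusted p = 0.0656) in control. KO against control in FM was -0.40 (95% interval -0.66 to -0.13, adjusted p = 0.0249). It passed for DHT in KO when only these groups were fitted (0.59) and without replicate 2 of KO DHT (0.69).

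SLC39A8 (ZIP8), which also carries manganese and cadmium, had 478 and 482 in control EtOH, 351 and 452 in DHT and 356 and 344 in FM, and 537 and 534 in KO EtOH, 475 and 393 in DHT and 369 and 402 in FM. EtOH was highest in each line and did not overlap DHT or FM, whereas for SLC39A1 EtOH was lowest in each line. FM against EtOH gave -0.46 (95% interval -0.77 to -0.14, adjusted p = 0.0160) in control and -0.47 (95% interval -0.79 to -0.16, adjusted p = 0.0120) in KO, both under the fold minimum. DHT gave -0.26 and -0.30 (adjusted p = 0.291 and 0.245), and KO against control between 0.12 and 0.16 with adjusted p of 0.598 to 0.702.

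SLC30A4 (ZnT4) moves zinc into endosomes and secretory vesicles. Its normalized counts were 7835 and 6544 in control EtOH, 3431.5 and 3171 in DHT and 4972 and 5384 in FM. In KO they were 10832 and 11357 in EtOH, 7055 and 5979 in DHT and 4956 and 4953 in FM. KO EtOH was above every other sample and control DHT below every other, while the 4 FM samples lay within 4953 to 5384. DHT lowered it in both lines, with a log2 fold change of -1.12 (SE 0.12, adjusted p = 2.10e-18) in control and -0.77 (SE 0.12, adjusted p = 9.19e-09) in KO. The responses differed by 0.36 (SE 0.17, 95% interval 0.02 to 0.69). That was the only member with an unadjusted p under 0.05 in the difference, at 0.0384, and its adjusted p was 1.

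Against control, SLC30A4 was higher in KO in EtOH by 0.63 (SE 0.12, adjusted p = 1.21e-05) and in DHT by 0.98 (SE 0.12, adjusted p = 1.35e-13), a 1.97-fold difference. In FM the lines differed by -0.06 (95% interval -0.30 to 0.17, adjusted p = 0.768). FM against EtOH gave -0.47 (SE 0.12, adjusted p = 0.000557) in control, under the fold minimum, and -1.16 (SE 0.12, adjusted p = 3.72e-20) in KO. The difference of these FM responses was -0.69 (SE 0.17, adjusted p = 0.00835) and passed in DESeq2, while edgeR gave -0.67 (adjusted p = 0.101). Nor did it reach the threshold when any of 6 libraries was left out, each replicate 2 of the 4 groups and replicate 1 of KO FM and KO EtOH, at -0.72 to -0.57 with adjusted p of 0.0268 to 0.256, the change of -0.57 being under the fold minimum. Without replicate 2 of control EtOH the KO excess in EtOH was 0.50 and under the fold minimum, and the fall with FM in control was -0.60 and past it. Of the SLC30A4 exon bases, 4.41% overlap HMGN2P46 and SLC30A4-AS1 on the other strand, which had at most 1001 counts.

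SLC30A5 (ZnT5) loads zinc into the early secretory pathway, where zinc-dependent enzymes such as alkaline phosphatase receive it. Its normalized counts were 1960.3 and 2035 in control EtOH, 2162.5 and 2412 in DHT and 2132.5 and 2347 in FM. In KO they were 1579 and 1672 in EtOH, 1816 and 1687 in DHT and 1677 and 1739 in FM. Every KO sample lay below every control sample. KO against control was -0.30 (95% interval -0.51 to -0.08, adjusted p = 0.0635) in EtOH, -0.38 (95% interval -0.60 to -0.17, adjusted p = 0.00495) in DHT and -0.39 (95% interval -0.61 to -0.18, adjusted p = 0.00461) in FM. These are 1.23-fold to 1.31-fold differences, under the fold minimum in each condition. DHT and FM gave 0.07 to 0.20 with adjusted p of 0.224 to 0.690. Of the SLC30A5 exon bases, 9.78% overlap ENSG00000248664 on the other strand, which had at most 6 counts.

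SLC30A1 (ZnT1), the exporter of the cell surface and a known target of MTF1, had 869.8 and 751 in control EtOH, 765 and 823 in DHT and 777.5 and 997 in FM. In KO it had 697 and 667 in EtOH, 718 and 631.5 in DHT and 736 and 779 in FM. Control and KO overlapped in FM and did not in EtOH or DHT. No comparison had an adjusted p below 0.287. The values were -0.25 to -0.23 for KO against control (95% intervals from -0.54 to 0.06), -0.03 and -0.01 for DHT, and 0.13 and 0.15 for FM, where the 95% intervals ran from -0.16 to 0.44. FM in KO gave 1.11-fold for SLC30A1 (95% interval -0.14 to 0.44 on the log2 scale), and a link to the metallothioneins was not tested.

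MT2A, like the other metallothioneins, stores and buffers zinc and binds toxic metals such as cadmium. Its normalized counts were 757.5 and 1362 in control EtOH, 547 and 684 in DHT and 1051 and 899.7 in FM. In KO they were 852 and 757 in EtOH, 495 and 589.6 in DHT and 2011 and 2006 in FM. Both KO FM samples lay above all others, the DHT samples of each line lay below its EtOH samples, and the control EtOH replicates stood 1.80-fold apart, so that control EtOH overlapped control FM and KO EtOH. FM raised it by 1.32 (SE 0.21, adjusted p = 6.81e-09) in KO. In control the value was -0.12 (95% interval -0.54 to 0.30, adjusted p = 0.720). The responses differed by 1.44 (SE 0.30, 95% interval 0.85 to 2.03, adjusted p = 0.000524), which passed, and in FM itself KO exceeded control by 1.04 (SE 0.21, adjusted p = 3.37e-05), a 2.06-fold difference. The difference of the responses passed with every library left out in turn, at 0.96 to 1.80, and with edgeR.

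In the KO FM samples the luminal markers summed to 75627.6 and 83342.7, above the 56713.4 and 57278.6 of control FM. Basal markers summed to 28.9 and 32.9 there, against 13.6 and 18.8. Stromal markers went the other way, at 445.8 and 482.3 in KO FM against 526.2 and 545.5 in control FM, as did VWF at 157.6 and 178.7 against 223.7 and 240.7. Against EtOH, the stromal sum was also lower in FM in both lines, from 794.6 and 827.2 in KO EtOH and 1106.1 and 1163.8 in control EtOH. The part of these differences in the MT2A result was not tested.

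DHT lowered MT2A 1.72-fold in control (log2 fold change -0.78, SE 0.21, adjusted p = 0.00228) and gave -0.57 (SE 0.21, adjusted p = 0.0566) in KO. The control value rested on replicate 2 of control EtOH, without which it was -0.30 (adjusted p = 0.170). It was also -0.63 (adjusted p = 0.0772) without replicate 1 of control DHT and -0.77 (adjusted p = 0.0562) in a fit of these 2 groups alone. KO against control was -0.40 (adjusted p = 0.281) in EtOH and -0.18 (adjusted p = 0.634) in DHT. Without replicate 1 of control EtOH the first of these became -0.76 (adjusted p = 4.58e-05), and without replicate 2 it became 0.09 (adjusted p = 0.845).

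MT1X, another gene of the same cluster and kind, had 104 and 193 in control EtOH, 113 and 138 in DHT and 169 and 200.4 in FM, and 115 and 84.7 in KO EtOH, 72.6 and 98.6 in DHT and 278 and 228 in FM. Its highest samples were also the KO FM samples, followed by a control FM sample and the higher control EtOH replicate. FM raised it by 1.35 (SE 0.28, adjusted p = 1.99e-05) in KO, and in control the value was 0.32 (95% interval -0.23 to 0.87, adjusted p = 0.415). The difference of the responses was 1.03 (SE 0.40, 95% interval 0.24 to 1.81, adjusted p = 0.177) and did not pass, though it reached 1.41 (adjusted p = 0.00148) without replicate 1 of control EtOH. KO against control was 0.45 in FM (adjusted p = 0.252), -0.57 in EtOH (adjusted p = 0.240) and -0.56 in DHT (adjusted p = 0.191). Without replicate 1 of control EtOH the EtOH value was -0.96 (adjusted p = 0.00667). Without replicate 2 the FM response of control was 0.83 (adjusted p = 0.0178).

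Of the 50-base words in MT1X exons, 18.7% also occur in other genes of the files, against 4.18% for MT2A and at most 2.24% for the carriers. The word search did not leave out genes at the same place. Of the MT1X exon bases, 18.6% overlap another gene on the same strand, which had 0 counts. How many of the shared words come from that overlap was not counted. Reads over more than 1 gene and reads that align to several places are both left out of the counts, so the MT1X level is uncertain.

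**Figure D2:**
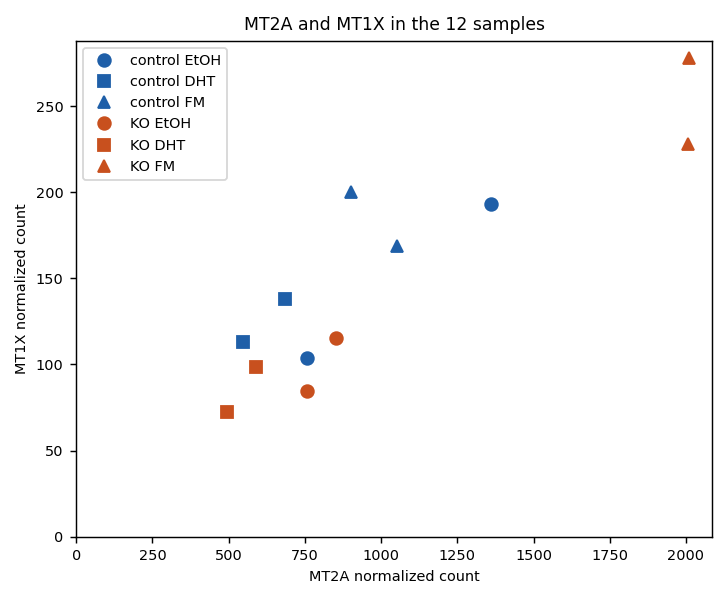
Normalized counts of MT2A (horizontal axis) and MT1X (vertical axis), both from 0, in the 12 samples. Symbols give the culture condition and colours the line (blue control, orange Bag-1L KO). The KO FM samples stand apart at 2006 and 2011 MT2A counts, and the control EtOH samples lie far from each other on both axes.

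The ratio of MT2A to MT1X normalized counts was compared within each sample, which leaves out sequencing depth. In EtOH it was 7.30 and 7.06 in control against 7.39 and 8.93 in KO. In DHT it was 4.84 and 4.95 against 6.81 and 5.98, and in FM 6.22 and 4.49 against 7.23 and 8.80. The lowest ratios were in control DHT and 1 control FM sample, and the KO samples were higher than the control samples of DHT and of FM. Although the control EtOH replicates were 1.80-fold apart for MT2A and 1.86-fold for MT1X, their ratios were close. Both genes stood higher together in the second of these libraries, where BAG1 was also 1.59-fold higher.

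The 10 genes were then counted by comparison and read against all genes tested. DHT in control raised 1 of 10 (SLC39A7) and lowered 2 (SLC30A4, MT2A), where 6.04% of all genes passed higher and 5.37% lower. In KO it raised 1 (SLC39A7) and lowered 1 (SLC30A4), with 4.43% and 3.24% of all genes. The median over the 10 genes was 0.08 in control and 0.05 in KO, and over all genes -0.02 and -0.01. For the difference of the DHT responses, 0 of 10 passed in DESeq2 and 0 in edgeR, with 1 at an unadjusted p under 0.05, and 0.223% and 0.185% of all genes passed higher and lower.

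KO against control gave 1 of 10 higher in EtOH (SLC30A4), where 2.8% of all genes were higher and 2.31% lower. In DHT 1 was higher (SLC30A4) and 1 lower (SLC39A7), against 4.66% and 3.32%. In FM 1 was higher (MT2A), against 5.41% higher and 2.6% lower. The median over the 10 genes was -0.21 in EtOH, -0.21 in DHT and -0.07 in FM, and between -0.02 and -0.01 over all genes.

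FM against EtOH gave 1 of 10 higher in control (SLC39A6), where 9.81% of all genes passed higher and 11.5% lower. In KO 2 were higher (MT2A, MT1X) and 1 lower (SLC30A4), against 9.61% and 9.68%. For the difference of these responses 1 was higher (MT2A) and 1 lower (SLC30A4), against 0.748% and 0.64% of all genes. The medians over the 10 genes were 0.15 in control and 0.30 in KO, and -0.01 over all genes in both. Since DHT and FM were both set against the same EtOH samples, their values share the spread of those samples and are given side by side without a test of likeness.

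**Figure D3:**
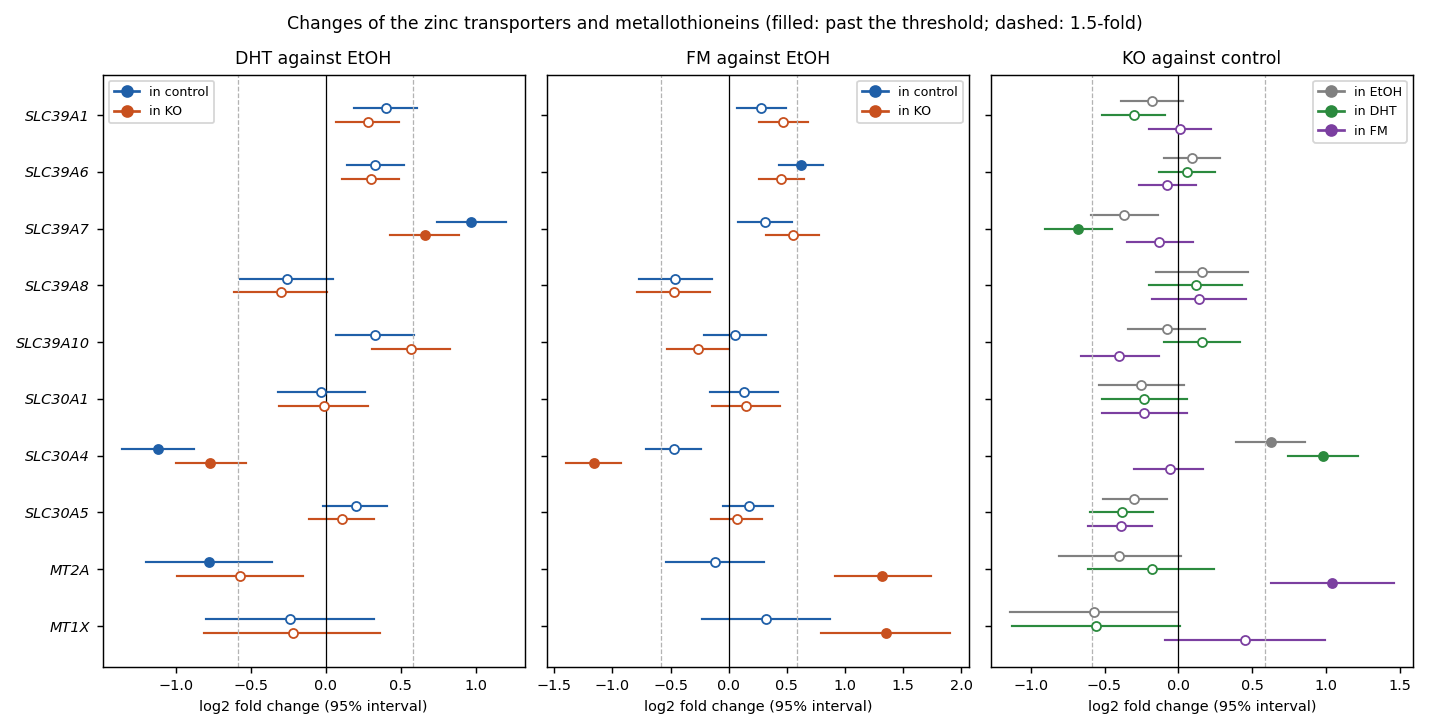
Log2 fold changes of the 10 genes (horizontal axes) with DHT, with FM and between the lines, with 95% intervals. Filled symbols passed the threshold and dashed lines mark 1.5-fold. SLC30A4 passed in 5 of the 7 comparisons drawn, and SLC30A4 and SLC39A7 lay on opposite sides of 0 for DHT and for KO against control in EtOH and DHT.

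Levels of different genes were compared only per length, as CPM per kilobase of merged exons (counts scaled to equal library totals and divided by length). In control EtOH the order was SLC39A7 at 65.3 ± 5.99 (SD, n = 2), SLC39A6 at 51.3 ± 3.45, SLC39A1 at 47.5 ± 3.25, MT2A at 46.7 ± 16.5 and SLC30A4 at 36.6 ± 6.62. Below these came SLC30A5 at 15 ± 0.42, SLC39A10 at 8.54 ± 1.59, SLC30A1 at 5.62 ± 0.886, MT1X at 3.46 ± 1.30 and SLC39A8 at 2.31 ± 0.11. From SLC39A6 to SLC30A4 the replicates of each gene overlapped those of its neighbour. SLC39A6 (48.9 and 53.7) and SLC39A1 (45.2 and 49.8) overlapped each other, but both lay above SLC30A4 (31.9 and 41.3). MT2A (35.1 and 58.4) overlapped all of them. The place of MT2A among these 4, and the order of SLC39A6 and SLC39A1, are therefore not set by the data.

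In KO EtOH SLC30A4 came first, at 58.8 ± 2.06 (SD, n = 2) and overlapping SLC39A6 at 57.0 ± 1.41. The order depends on the length chosen. With the canonical transcript, which is 401 bases for MT2A and 404 for MT1X in place of 914 and 1727 bases of merged exons, MT2A was 106 ± 37.5 and MT1X 14.8 ± 5.55 (SD, n = 2) in control EtOH, and SLC30A4 in KO EtOH came behind SLC39A7, MT2A and SLC39A1.

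**Figure D4:**
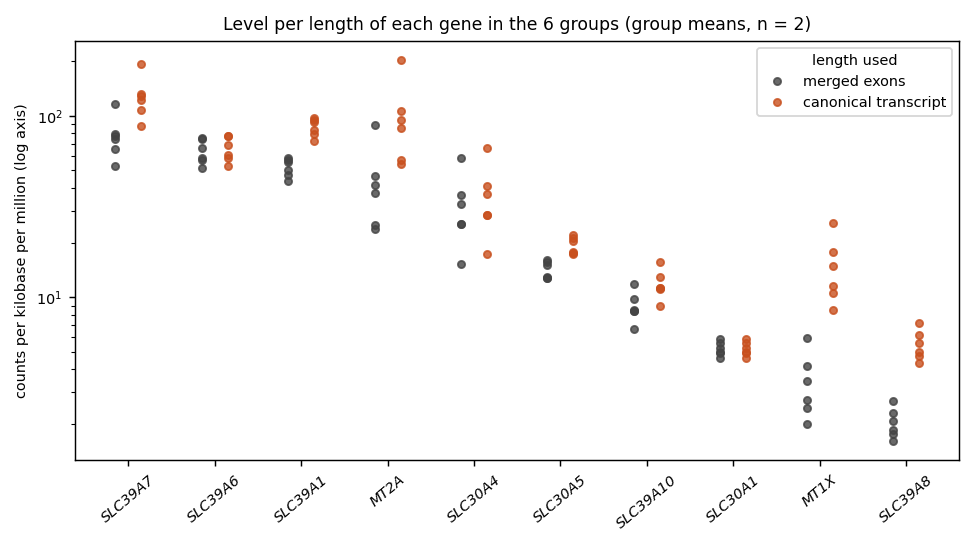
CPM per kilobase (vertical log axis) of the 10 genes, ordered by level. Points are the 6 group means (n = 2 each), grey with the length of merged exons and orange with that of the canonical transcript. The choice of length moves MT1X most, while SLC30A1 has 1 length for both.

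The other known genes of zinc handling were counted as a list of 27, of which 12 to 15 were tested in a comparison. DHT in control raised SLC30A7, which loads zinc into the Golgi, by 0.91 (SE 0.14, adjusted p = 1.49e-09) and lowered SLC30A3, the carrier of synaptic vesicles (log2 fold change -1.13, SE 0.36, adjusted p = 0.0125). In KO it raised SLC30A7 by 0.71 (SE 0.14, adjusted p = 9.66e-06). There edgeR also called SLC30A10, a manganese exporter, lower, on raw counts of 12 and 6 in KO EtOH and 2 and 0 in KO DHT, and DESeq2 gave it no adjusted p. SLC30A7 had 1152 and 958 normalized counts in control EtOH against 2186 and 1790.5 in control DHT, and its groups did not overlap in either line. SLC39A14 (ZIP14), a carrier of zinc, iron and manganese, gave 0.55 (adjusted p = 2.52e-05) and 0.47 (adjusted p = 0.000706), under the fold minimum. For the difference of the DHT responses 0 of 12 passed in DESeq2 and in edgeR, and 0 had an unadjusted p under 0.05. Of all genes tested, 0.223% and 0.185% passed higher and lower.

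FM against EtOH changed 5 of 15 of these genes in control and 4 of 15 in KO. Of all genes tested, 9.81% rose and 11.5% fell in control and 9.61% and 9.68% in KO. SLC30A7 rose by 0.94 and 0.74 (adjusted p = 2.09e-10 and 1.28e-06) and SLC39A14 by 0.75 and 0.64 (adjusted p = 1.41e-09 and 2.62e-07). SLC39A13 (ZIP13), an importer of the secretory pathway, fell by 1.03 and 0.88 on the log2 scale (adjusted p = 7.95e-12 and 2.30e-09), and SLC30A3 by 2.80 and 2.74 (adjusted p = 1.79e-10 and 1.43e-07). SLC30A3 had 103 and 173 normalized counts in control EtOH and only 5.6 to 24.3 in the 4 FM samples. MTF1, the zinc sensor itself, rose in control by 0.87 (SE 0.14, adjusted p = 1.08e-08), and in KO its value was 0.35 (adjusted p = 0.0436), under the fold minimum. In FM the MTF1 counts of control were 1316 and 1311 beside 1010.1 and 975.5 for KO. The difference of -0.40 (adjusted p = 0.0268) was under the fold minimum, and the part of MTF1 in the MT2A result was not tested.

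Between the lines, SLC30A3 was lower in KO in EtOH (log2 fold change -1.09, SE 0.36, adjusted p = 0.0310), at 53.1 and 76.2 normalized counts. SLC39A4 (ZIP4), the importer of the gut, was higher in KO in FM by 1.0 (SE 0.20, adjusted p = 3.57e-05), at 603.5 and 678 against 339 and 302.5 in control. In DHT 0 of 12 passed in DESeq2 and 0 in edgeR, with 2 at an unadjusted p under 0.05. Of all genes tested, 4.66% were higher and 3.32% lower there. SLC30A7 was lower in KO in DHT by 0.45 on the log2 scale (adjusted p = 0.0113), under the fold minimum. For the difference of the FM responses 0 of 12 passed in DESeq2 and 0 in edgeR, with 2 at an unadjusted p under 0.05. Of all genes, 0.748% and 0.64% passed higher and lower.

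The 9 other metallothionein genes listed had at most 3 counts in any sample, and 6 of them had 0 in every sample, which allows up to 0.0988 to 0.144 CPM. MT1H is among the 9, although its RefSeq window held 8 metal response element cores.

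**Figure D5:**
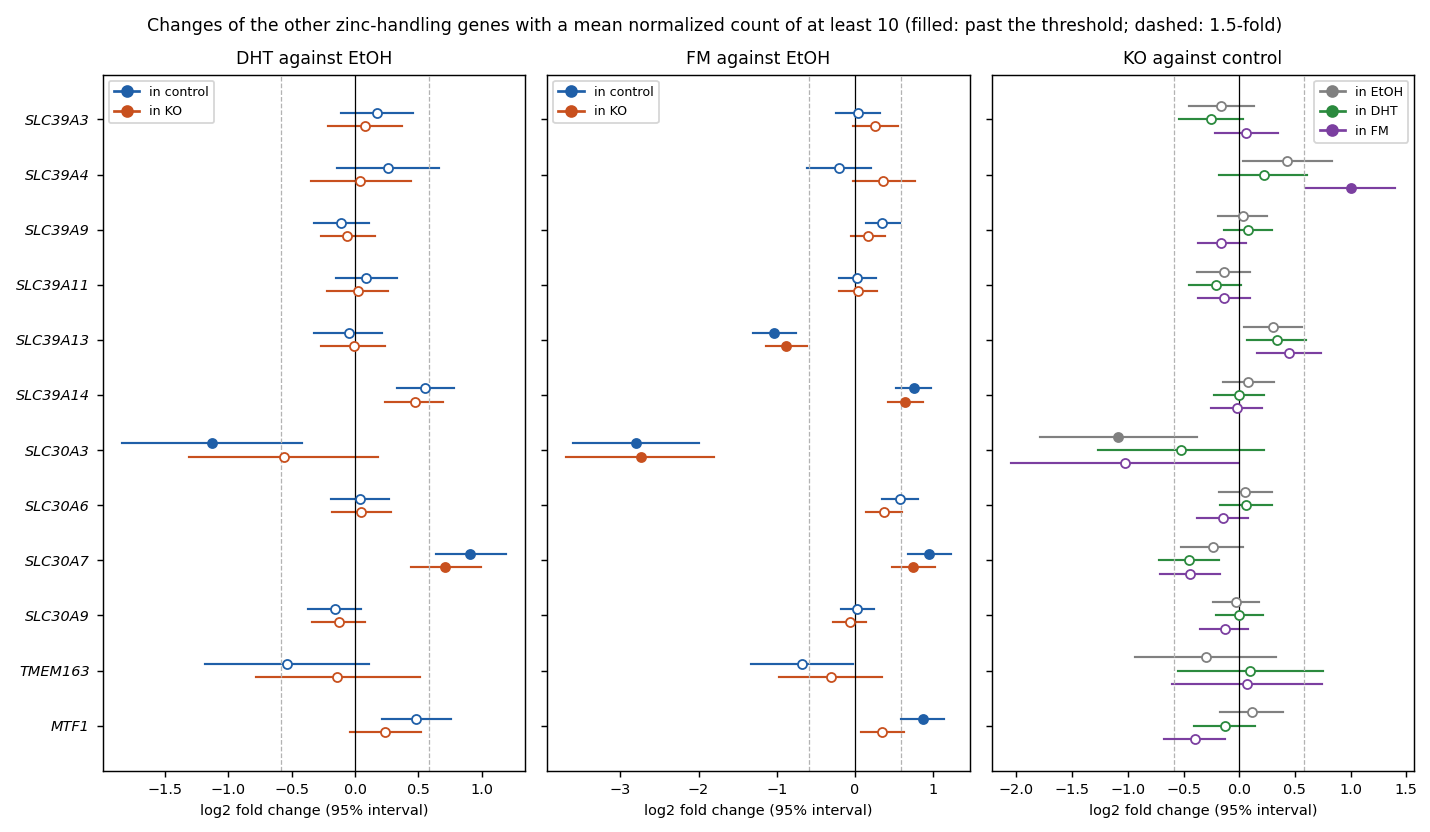
Log2 fold changes (horizontal axes) with 95% intervals for the other zinc genes whose normalized counts averaged 10 or more. Filled symbols passed the threshold and dashed lines mark 1.5-fold. SLC30A3, at -2.80 in control and -2.74 in KO, and SLC39A13 fell with FM in both lines, and SLC30A7 rose with both DHT and FM.

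For each member the gene whose log2 normalized count was most like it was sought among 11084 genes outside the zinc lists whose normalized counts averaged 100 or more. Likeness was Pearson's r over the same 12 samples, which share the libraries and come from 6 groups. SLC39A7 was most like TXNDC11 (r = 0.989), SLC39A1 most like RPS6KB2 (0.986), SLC39A6 most like SLC25A32 (0.983) and SLC30A4 most like B4GALT6 (0.983). The values were 0.951 for SLC39A10 with CCND1, 0.945 for SLC39A8 with LMBRD1 and 0.979 for SLC30A5 with CBWD6, a gene with near-identical copies and so of uncertain count. MT2A was most like NRM (0.962) and MT1X most like MRPL58 (0.966). SLC30A1 had the lowest best match, ZNF891 at 0.913. Each is the best match out of 11084 genes and was not tested.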

How the data were processed

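Poly(A) RNA of 12 samples (6 groups, 2 biological replicates each) was sequenced by the study's authors from TruSeq stranded libraries on an Illumina HiSeq. Reads were handled with CASAVA 1.7, TopHat2 2.0.11 and HTSeq 0.5.3p3, as the submitters' processing notes name them, on GRCh37. The Ensembl release and the strand setting are not given in the sources used here. The deposited values are raw read counts per Ensembl gene, 63677 identifiers and 5 tallies a file, not normalized or pooled. In HTSeq, multiply aligned reads (15.9% to 20% of all entries) and reads over more than 1 gene (6.9% to 7.97%) are not assigned to genes. These tallies were kept out of library sizes and tests.

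Symbols, positions and exon lengths came from GENCODE on GRCh37, which held 55665 identifiers, and upstream sequences from RefSeq. Genes with at least 10 counts over all samples were fitted with DESeq2 1.42.0 under R 4.3.3, the tool of the study, in 1 fit of 12 samples with a coefficient per group, Wald tests and Benjamini-Hochberg adjustment. Replicates differed by more than sampling noise in every group (chi-square per degree of freedom of 2.4 to 22.8), and each was counted once. Alternatives were edgeR 4.0.16 (quasi-likelihood, TMM), TMM size factors, all genes kept whatever their counts or 10 counts required in each sample, the replicate number as a block, a fit of only the groups compared, no fold change minimum, each sample left out in turn, and other lengths, the canonical one added after seeing the data. The fits were tested on simulated data.

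The genes named are BAG1, the 10 members in every comparison, each other listed zinc gene that passed in any comparison in DESeq2, and the gene most like each member. Other genes named beside them were chosen after their values were seen. Members and lists were chosen with earlier results of these data known. Some listed genes are not reported here and were left out of the list counts. Intervals and floors cover counting error and the spread between these samples only, since the replicates of a line come from that line.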

Additional observations from a re-analysis of the deposited data

Results flagged for a closer look

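Responses to FM that differed between the lines stood out for 2 members. For SLC30A4 the response in KO minus that in control was -0.69 on the log2 scale, from -0.47 in control and -1.16 in KO. For MT2A it was 1.44, from -0.12 in control and 1.32 in KO. The SLC30A4 value passed in DESeq2 and not in edgeR, and the MT2A value passed in both.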

How the results depend on the processing

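Of 1070 member values under the alternatives, 1024 kept their side of the threshold, 12 lost it, 25 gained it (17 of them with no fold change minimum) and 9 changed sign by more than 1 SE. Of the 15 member results that passed, 11 passed in every alternative run. The exceptions were SLC30A4 in the difference of FM responses, MT2A for DHT in control, SLC39A6 for FM in control and SLC30A4 for KO against control in EtOH. Another 34 values of at most 0.22 in size changed sign by less than 1 SE.

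With edgeR, 24 genes passed in the difference of DHT responses and 65 in that of FM responses, with 1 member, against 55, 180 and 2 with DESeq2. When only the groups compared were fitted, 19 genes passed in the difference of DHT responses and 531 for KO against control in EtOH, against 55 and 844. With no fold change minimum 3491 genes and 5 members passed for DHT in control, 2384 and 4 in KO, 1620 and 2 for KO against control in EtOH, 2620 and 4 in DHT, 2776 and 3 in FM, 6478 and 5 for FM in control and 5887 and 7 in KO. The cause of the changes with edgeR was not tested, and fewer samples entered the fits of only the groups compared.

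With the replicate number as a block, 281 genes passed in the difference of FM responses against 180 without it, and no member call changed. The deviations of same-numbered samples had correlations of -0.415 to 0.692 over 15 pairs of groups, 8 of them positive, so the numbers were not taken to pair the samples.

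With each replicate left out in turn, the difference of DHT responses had 16 to 154 genes and that of FM responses 49 to 2120 genes and 1 to 3 members. The value of 2120 came without replicate 1 of control EtOH. KO against control had 483 to 1430 genes and 0 to 3 members in EtOH, 720 to 1566 genes in DHT and 519 to 900 in FM, and FM in control had 0 to 3 members. A group left with 1 sample was assumed to vary like the others. The 9 values that changed sign by more than 1 SE did so in these fits and had not passed before. They ranged from -0.06 to 0.31 for SLC30A1, -0.06 to 0.83 for MT1X and -0.48 to 0.36 for MT2A with FM in control. The range was -0.62 to 0.28 for MT1X with DHT in control, -0.27 to 0.58 for MT2A and -0.50 to 0.40 for MT1X in the difference of DHT responses. For KO against control it was -0.21 to 0.06 for SLC39A10 and -0.76 to 0.09 for MT2A in EtOH and -0.06 to 0.31 for SLC39A8 in DHT.

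With 2 replicates a group, MT1X was measured with SEs of 0.28 to 0.41, so that a change of it near 1.5-fold was not detectable here. Its control EtOH replicates stood 1.86-fold apart. The parts of low counts and of spread between replicates in these SEs were not separated.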
